A study of Mus musculus with 8 samples.

Results

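The epidermal growth factor (EGF) family ligands, their ErbB receptors and the receptor inhibitor Errfi1 were followed across 4 mouse epithelial cell lines, by gene symbol. The 10 genes were Areg, Ereg, Hbegf, Tgfa, Btc, Epgn, Egfr, Erbb2, Erbb3 and Errfi1. The array's annotation named 18193 genes, of which these are 9, and paired 21 of the 45037 analysed probe sets with them. It paired no probe set with Areg, which was not analysed here. Of the 21 probe sets, 19 passed the filter on low values, and these covered all 9 genes. The 2 that did not pass were Egfr 1457563_at and Erbb3 1452482_at.

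RNA from each line was hybridised to 2 arrays of a single-colour Affymetrix platform, 1 array per condition and 8 in all. Stimulated cells had received recombinant human TGF-β1 at 3 ng/mL together with recombinant human EGF at 3 ng/mL for 24 h, and resting cells had received neither. Both conditions shared an overnight culture with serum and then 24 h in a Ham's F-12/DMEM medium with transferrin and insulin before the treatment. The lines were EpH4 and NMuMG from mammary gland and mProx and MCT from kidney tubule, and EpH4 is labelled as EMT resistant, where EMT is the shift of an epithelial cell to a migratory, fibroblast-like one. Because the factors were always given together, their separate effects cannot be told apart, and the added EGF is itself a ligand of the receptor studied here.

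EGF family ligands are made as membrane-anchored precursors that ADAM metalloproteases cut loose, and the freed ligand binds an ErbB receptor on the same or a neighbouring cell. Bound receptors pair up and phosphorylate each other, which switches on the RAS-ERK and PI3K pathways. Erbb2 has no known soluble ligand of its own and works as a partner, Erbb3 has a weak kinase and couples strongly to PI3K, and Errfi1 (also called Mig6) binds the active receptor's kinase and shuts it down. In the mammary gland the pathway drives the growth of ducts, and in the kidney tubule it takes part in repair after injury.

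All values below are log2 levels after an offset of 10.6 was added to the deposited signal and the arrays were quantile-normalised. They ran from 3.41 to 13.71 over all probe sets, and probe sets with a mean under 5.27 were not tested. Levels of different probe sets cannot be set against each other, because each binds its own probes. A bulk array also cannot tell fewer expressing cells from less RNA per cell. Before normalisation the arrays' trimmed mean signals ran from 209 to 377. In NMuMG the trimmed mean was 267.4 on the stimulated and 209.3 on the resting array, and in each other line the resting array was the brighter one. The direction of small changes within a line can therefore depend on the normalisation.

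The lines were checked against defining markers. Of 10 epithelial markers, 9 were above the filter level in EpH4, 8 in NMuMG, 7 in MCT and 6 in mProx, with the same number on the stimulated and the resting array of each line. Cdh1, the epithelial cadherin, was at 11.61 in stimulated and 11.84 in resting EpH4 cells. In mProx it was below the filter level at 3.56 in stimulated and 3.53 in resting cells, and MCT was also below it at 4.47 and 3.87. The tubule genes Pax8 and Cdh16 were well above the filter level in both kidney lines and near or below it in both mammary lines. Other genes of the kidney tubule list did not separate the lines in this way. Slc34a1, Slc5a2, Lrp2, Cubn and Hnf4a were between 5.26 and 7.26 on all 8 arrays, and the water channel Aqp1 was at 11.23 in stimulated and 12.84 in resting mProx cells but at 5.08 and 5.07 in those of MCT. Cdh16 was at 10.04 in stimulated and 12.23 in resting mProx cells, and at 9.48 and 10.80 in those of MCT. The basal keratin Krt14 was at 11.60 and 10.85 in stimulated and resting EpH4 cells but below the filter level in NMuMG, at 3.79 and 4.04. Other measured genes of the mammary list did not set both mammary lines apart. Of its 9 genes, 6 were above the filter level on both EpH4 arrays. In stimulated and resting cells, 5 and 2 were above it in mProx, 4 and 5 in MCT, and 3 and 4 in NMuMG. Gata3 was highest in EpH4, at 8.04 and 8.37. Csn3 was at 10.63 and 9.43 in MCT but at 5.44 and 4.08 in EpH4. Krt5 was between 5.85 and 6.91 on all 8 arrays. Of 8 fibroblast markers, 6 were above the filter level on both mProx arrays and in stimulated NMuMG cells, 5 on both EpH4 arrays, 4 in resting NMuMG cells and 2 on both MCT arrays. Their summed deposited signal was 568 in stimulated and 2008 in resting mProx cells, where Dcn was at 7.53 and 10.56, and it ran from 210 to 692 on the other 6 arrays. Of 6 leukocyte markers 2 to 4 were above the filter level, and of 6 endothelial markers 0 to 3, with summed signals of 152 to 261 and 87.3 to 186. The part of other cell types in the results was not tested.

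The first question was whether the receptor family and its ligands respond to the combined stimulation. No member probe set passed the test of a common response over the 4 lines (0 of 19, limma adjusted p under 0.05), where 0% of all 27022 tested probe sets did. At an unadjusted p under 0.05 it was 1 of 19, against 11% of all tested probe sets. The cell line was the replicate and entered the test as a block. Each line has 1 array per condition, and the number of cultures pooled on an array is not stated in the labels. The p-values of the response tests therefore measure only the spread between these lines. In what follows, each mean change carries the SD over the 4 lines, and adjusted p-values come from limma over all tested probe sets.

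Hbegf encodes heparin-binding EGF-like growth factor, which activates Egfr and Erbb4. Its probe set 1418350_at was at 8.46 in stimulated and 7.66 in resting EpH4 cells, at 10.08 and 9.73 in stimulated and resting mProx cells, at 10.76 and 9.53 in those of MCT, and at 10.68 and 10.46 in those of NMuMG. The stimulated array was thus the higher one in each of the 4 lines, by 2.34-fold in MCT, 1.74-fold in EpH4, 1.28-fold in mProx and 1.17-fold in NMuMG. The mean change was 0.65 ± 0.46 (SD, n = 4 lines), or 1.57-fold, with a 95% interval of 0.27 to 1.03. It did not pass the test over all probe sets (limma adjusted p = 0.249). Without MCT the mean change was 0.46.

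It was the 1 member probe set of 19 with the same direction in all 4 lines, a share of 5.26% where 19.1% of all tested probe sets had one direction throughout. The second Hbegf probe set, 1418349_at, was higher on the stimulated array in MCT (9.00 against 8.10 resting), NMuMG (9.18 against 8.82) and mProx (8.43 against 8.16). In EpH4 it was at 7.56 in stimulated and 7.68 in resting cells. Its mean change was 0.35 ± 0.42 (SD, n = 4 lines; limma adjusted p = 0.502), and 0.17 without MCT. The pair of Hbegf probe sets therefore gave the same direction in mProx, MCT and NMuMG and opposite directions in EpH4.

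Tgfa encodes transforming growth factor alpha, a ligand of Egfr. Probe set 1421943_at was at 9.30 in stimulated and 9.17 in resting EpH4 cells, 8.29 and 7.48 in mProx, 8.98 and 9.61 in MCT, and 9.38 and 9.67 in NMuMG. Stimulated cells were higher in EpH4 and mProx and lower in MCT and NMuMG, and the mean change of 0.005 ± 0.62 had an interval from -0.48 to 0.49 (SD, n = 4 lines; limma adjusted p = 0.995). All 3 Tgfa probe sets were higher on the stimulated mProx array, by 0.56 to 0.81, and all 3 were lower on the stimulated NMuMG array, with changes of -0.34 to -0.27. In MCT 2 of them were higher and 1 lower, so the sets did not agree there. The NMuMG and MCT directions depend on the normalisation. In the deposited NMuMG signal, 1421943_at was higher in stimulated cells (593.6 against 557.4 resting). There 1421942_s_at was level (153.6 against 153.5) and 1450421_at was lower (169.8 against 176.8). In the deposited MCT signal all 3 were lower in stimulated cells.

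Ereg encodes epiregulin, a ligand of Egfr and Erbb4. It was at 9.05 in stimulated and 9.18 in resting EpH4 cells, 6.26 and 5.20 in mProx, 3.58 and 4.17 in MCT, and 8.12 and 8.20 in NMuMG. Resting mProx and both MCT arrays lay below the filter level, and the 1.06 higher value of stimulated mProx cells starts from such a dim signal. The change was -0.13 in EpH4, -0.58 in MCT and -0.08 in NMuMG. The mean over the lines was 0.07 ± 0.70, with an interval from -0.53 to 0.66 (SD, n = 4 lines; limma adjusted p = 0.952).

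Btc, betacellulin, binds Egfr and Erbb4. Probe set 1435541_at was at 8.21 in stimulated and 8.63 in resting EpH4 cells, 6.78 and 7.18 in mProx, 7.50 and 7.32 in MCT, and 7.21 and 6.61 in NMuMG. Its second probe set, 1421161_at, gave the same sign as the first in each of the 4 lines. That set was below the filter level in stimulated mProx cells (5.25) and in stimulated and resting NMuMG cells (5.17 and 4.52). Stimulated cells had the lower value in EpH4 and mProx and the higher one in MCT and NMuMG, with changes in NMuMG of 0.60 and 0.64. The mean changes were -0.01 ± 0.49 and -0.10 ± 0.57 (SD, n = 4 lines; limma adjusted p = 0.991 and 0.926).

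Epgn, epigen, is a ligand of Egfr. It was at 6.88 in stimulated and 7.19 in resting EpH4 cells, 4.60 and 4.99 in mProx, 5.81 and 5.67 in MCT, and 4.75 and 5.27 in NMuMG. The stimulated value was the lower one in 3 lines and the higher one in MCT. The mean change was -0.27 ± 0.29 with an interval from -0.77 to 0.24 (SD, n = 4 lines; limma adjusted p = 0.690). Both mProx arrays and both NMuMG arrays were below the filter level of 5.27 or at it.

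Among the receptors, Egfr probe set 1435888_at was at 8.19 in stimulated and 8.60 in resting EpH4 cells, 9.77 and 9.59 in mProx, 9.01 and 9.06 in MCT, and 10.16 and 10.28 in NMuMG. The mean change was -0.10 ± 0.24, and its interval ran from -0.38 to 0.18 (SD, n = 4 lines; limma adjusted p = 0.806). All 6 tested Egfr probe sets were higher on the stimulated mProx array, by 0.18 to 0.75, whereas 5 of 6 were lower on the stimulated NMuMG array. In the deposited signal, those 5 except 1432647_at were instead higher in stimulated NMuMG cells. For 1435888_at it was 1043.7 in stimulated and 879.9 in resting cells. The direction in NMuMG thus depends on the normalisation, whereas in mProx all 6 were also higher in the deposited signal. Probe sets of 1 gene share their RNA samples and are not independent measurements.

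Erbb2 was at 8.30 in stimulated and 8.28 in resting EpH4 cells, 8.48 and 9.08 in mProx, 8.28 and 8.56 in MCT, and 8.56 and 8.70 in NMuMG. Stimulated cells thus had the lower value in mProx, MCT and NMuMG, and EpH4 differed by 0.02. In the deposited signal, stimulated cells were instead higher in NMuMG (323.2 against 279.4 resting) and lower in EpH4 (327.9 against 402.5). The direction in those lines thus depends on the normalisation. The mean change of -0.25 ± 0.26 had an interval from -0.57 to 0.07 (SD, n = 4 lines; limma adjusted p = 0.551). Without mProx it was -0.13.

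Erbb3 probe set 1434606_at was at 9.76 in stimulated and 9.62 in resting EpH4 cells, 8.60 and 8.68 in mProx, 8.09 and 8.36 in MCT, and 6.05 and 6.09 in NMuMG. The largest change in any line was the -0.27 of MCT. The mean change was -0.06 ± 0.17, with an interval from -0.36 to 0.23 (SD, n = 4 lines; limma adjusted p = 0.894).

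Errfi1, the feedback inhibitor, had the narrowest interval of the members. Probe set 1416129_at was at 10.22 in stimulated and 10.27 in resting EpH4 cells, 10.28 and 10.42 in mProx, 9.80 and 9.71 in MCT, and 10.98 and 10.82 in NMuMG. The mean change was 0.01 ± 0.13, with an interval from -0.20 to 0.23 (SD, n = 4 lines; limma adjusted p = 0.974). The second probe set, 1419816_s_at, also had a mean change of 0.01, with an SD of 0.12. Changes beyond 0.23 in the mean of the 4 lines in either direction thus lie outside the 95% interval of the first probe set.

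**Figure D1:**
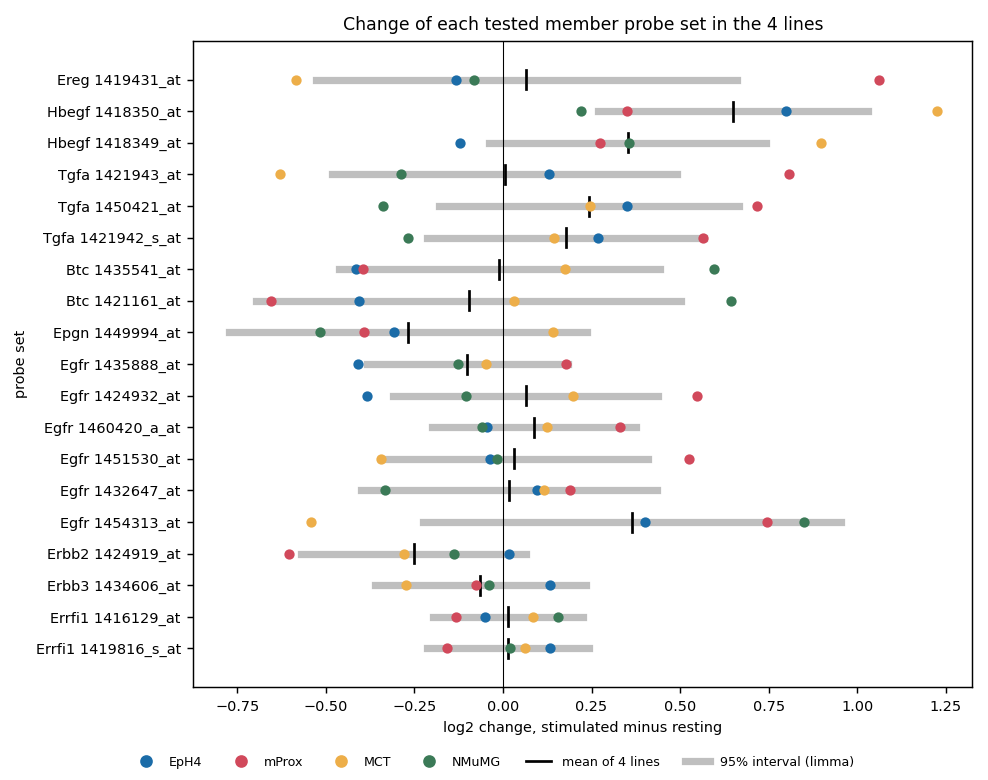
Log2 change (stimulated minus resting, x axis) of each of the 19 tested probe sets (rows) in EpH4, mProx, MCT and NMuMG (coloured points), with the mean of the 4 lines (black bar) and its 95% interval from limma (grey). Hbegf 1418350_at at 0.65 is the row with all 4 points above 0, and the Errfi1 rows have the narrowest spread.

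A change of at least 2-fold in a single line was seen in 1 member probe set in mProx (Ereg, 1.06), where 2.77% of all tested probe sets were that much higher. In MCT it was also 1 (Hbegf 1418350_at, 1.22 on the log2 scale), against 2.92% of all. No member was 2-fold higher in EpH4 or NMuMG, where 1.45% and 3.07% of all probe sets were. None was 2-fold lower in any line, against 2.65% of all in mProx, 2.7% in MCT, 1.58% in EpH4 and 3.52% in NMuMG. These single-line values have no replicate check.

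The labelled resistance of EpH4 raises the question whether its response differs from that of the other lines. The 3 lines without EpH4 gave 0 of 19 member calls, where 0.0666% of all tested probe sets passed. At an unadjusted p under 0.05 both Hbegf probe sets were counted (11.4% of all tested probe sets were), with mean changes over mProx, MCT and NMuMG of 0.60 and 0.51 (limma adjusted p = 0.342 and 0.363). The EpH4 change minus the mean change of the other 3 lines was called for 0 of 19, as it was for 0% of all, and 0 of 19 were below an unadjusted p of 0.05 against 3.19% of all. For Hbegf 1418350_at that difference was 0.20, with an interval from -0.76 to 1.16, and for 1418349_at it was -0.63, with an interval from -1.49 to 0.22. The interval of Egfr 1435888_at ran from -1.06 to 0.23 around -0.41. EpH4 enters this test as 1 line that is assumed to vary like the others. The intervals of these 3 probe sets leave differences of 2-fold or more undecided. The width differed between members, from -1.77 to 1.24 for Ereg but from -0.63 to 0.46 for Errfi1 1416129_at.

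Kidney and mammary lines were compared in the same way. The kidney change minus the mammary change was called for 0 of 19 members, as for 0% of all probe sets. At an unadjusted p under 0.05 it was 1 of 19, against 5.5% of all. That member was Egfr 1424932_at, with a mean change of 0.37 in the kidney lines against -0.25 in the mammary lines and a difference of 0.62 (interval 0.01 to 1.23; limma adjusted p = 0.898). The difference was above 0 in 5 of the 6 tested Egfr probe sets. The unadjusted count was 0 of 19 without normalisation, with trimmed-mean scaling and without the intensity trend. Of all 27022 tested probe sets, 915, 1509 and 1444 were then under that threshold. With offsets of 1 and 50 the member count stayed at 1.

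Like most probe sets on the array, the members differed between lines more than between conditions. In 16 of 19 tested probe sets the range of the 4 line means was larger than the largest change in any line, as it was in 79.8% of all tested probe sets. Erbb2 was the 1 gene of 9 whose best-measured probe set, the tested one with the highest mean, went the other way. A difference in level between lines was called for 14 of 19 members, or 73.7%, against 62.3% of all tested probe sets (limma F test, adjusted p under 0.05). In these tests the stimulated and the resting array stand in as the 2 samples of a line, after a common effect of the condition is taken out. The 2 arrays of a line differ in condition and are not replicate cultures. The p-values for levels therefore do not measure the spread between cultures of a line. The tests compare these 4 lines, and a difference between the tissues was not tested.

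**Figure D2:**
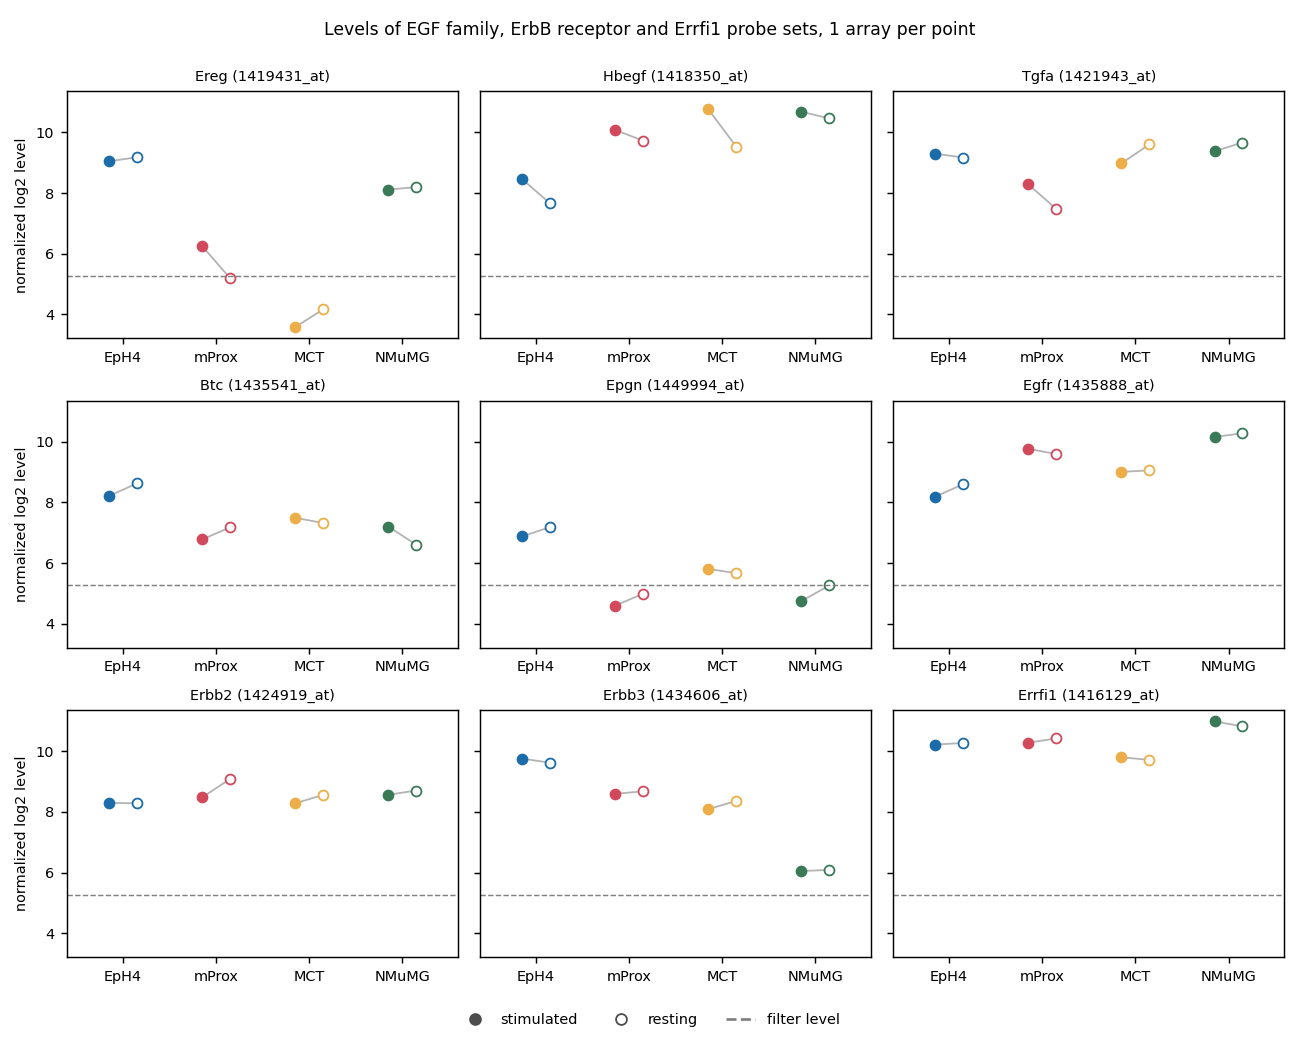
Normalised log2 level (y axis) of the best-measured probe set of each of the 9 genes (panels) in each line (x axis), with 1 filled point for the stimulated and 1 open point for the resting array and a dashed line at the filter level of 5.27. The points of a line lie close together next to the distance between lines in Ereg and Erbb3, and Erbb2 is nearly level across the lines.

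Of the 19 tested probe sets, 5 (26.3%) had both EpH4 arrays above the other 6 arrays, against 19% of all tested probe sets. These were Ereg, both Btc sets, Epgn and Erbb3, of which Epgn passed the filter only through its EpH4 level. A further 4 (21.1%) had both EpH4 arrays below the other 6, against 15.2% of all, and these were both Hbegf sets, Egfr 1435888_at and Egfr 1432647_at. The calls between single lines numbered 9 of 19 for EpH4 against mProx (38.6% of all), 10 for EpH4 against MCT (34.9%) and 11 for EpH4 against NMuMG (45.3%). They numbered 6 for mProx against MCT (19.9%), 7 for mProx against NMuMG (36.7%) and 8 for MCT against NMuMG (35.2%).

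The ligands Epgn, Ereg, Areg and Btc are neighbours on chromosome 5, with 0 protein-coding genes between them in the RefSeq table of assembly GRCm38.p6. The measured ones, Epgn, Ereg and Btc, all had their highest line mean in EpH4. Ereg had the widest range of all members. Its line mean was 9.11 in EpH4, 8.16 in NMuMG, 5.73 in mProx and 3.88 in MCT, a spread of 5.24 or 37.8-fold on the offset scale, which understates ratios of dim signals. The deposited signal was 569 and 772.6 in stimulated and resting EpH4 cells, and 1.2 and 6.8 in those of MCT. The EpH4 and NMuMG means, neighbours in that order, did not differ beyond the threshold (0.96, limma adjusted p = 0.0627), and the other 5 pairs of lines did.

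Btc was higher in EpH4 than in each other line by both probe sets, by 1.44 and 1.35 over mProx, 1.01 and 1.43 over MCT, and 1.51 and 2.08 over NMuMG (limma adjusted p = 0.00219 to 0.0233). Without the filter on low values, the 1.35 over mProx and the 1.01 over MCT were no longer called (limma adjusted p = 0.0507 and 0.0509). None of the 3 pairs without EpH4 was called by either set. Both NMuMG arrays were below the filter level by 1421161_at, so the size of its 2.08 over NMuMG is compressed by the offset. Epgn was likewise higher in EpH4, by 2.24 over mProx, 1.29 over MCT and 2.02 over NMuMG (limma adjusted p = 0.00077, 0.013 and 0.00108), and no other pair was called. With mProx and NMuMG below or at the filter level, the sizes of those Epgn differences are compressed by the offset. The Epgn line means outside EpH4 were 4.80 in mProx, 5.01 in NMuMG and 5.74 in MCT. Epgn thus passed the filter only through its EpH4 level, although its calls were kept without the filter.

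The promoters of Epgn and Btc, which share the high EpH4 level, are shown with those of Egfr and Errfi1, whose best-measured probe sets were highest in NMuMG instead. Each is the 250 bases before an annotated RefSeq start in GRCm38.p6, read 5′ to 3′ on the gene's strand. Epgn is at chr5:91027267-91027516 on the plus strand, Btc at chr5:91402995-91403244 on the minus strand, Egfr at chr11:16751953-16752202 on the plus strand and Errfi1 at chr4:150854820-150855069 on the plus strand. Capitals mark matches on either strand to a TATA box (TATAAA), a GC box (GGGCGG), a cAMP response element (TGACGTCA), an AP-1 site (TGANTCA) or a SMAD palindrome (GTCTAGAC).
Epgn: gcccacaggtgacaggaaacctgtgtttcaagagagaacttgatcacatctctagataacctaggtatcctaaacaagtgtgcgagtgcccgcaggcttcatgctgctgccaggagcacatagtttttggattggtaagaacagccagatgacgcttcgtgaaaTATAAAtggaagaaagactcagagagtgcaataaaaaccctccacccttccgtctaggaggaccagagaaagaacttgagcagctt
Btc: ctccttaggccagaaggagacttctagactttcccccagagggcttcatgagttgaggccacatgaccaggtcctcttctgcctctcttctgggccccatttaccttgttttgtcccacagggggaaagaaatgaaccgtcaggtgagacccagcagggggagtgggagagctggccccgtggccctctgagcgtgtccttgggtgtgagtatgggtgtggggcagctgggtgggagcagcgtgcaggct
Egfr: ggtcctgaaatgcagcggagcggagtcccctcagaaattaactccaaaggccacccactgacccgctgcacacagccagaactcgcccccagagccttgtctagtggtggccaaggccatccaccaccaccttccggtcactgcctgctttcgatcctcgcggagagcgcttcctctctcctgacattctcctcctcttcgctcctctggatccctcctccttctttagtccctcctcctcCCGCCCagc
Errfi1: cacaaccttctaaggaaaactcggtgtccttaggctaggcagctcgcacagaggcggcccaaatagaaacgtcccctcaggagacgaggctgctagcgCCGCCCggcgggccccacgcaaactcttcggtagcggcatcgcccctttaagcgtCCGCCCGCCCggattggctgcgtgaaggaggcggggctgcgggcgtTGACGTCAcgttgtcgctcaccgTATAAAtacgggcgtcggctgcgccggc
The Epgn window holds a TATA box at -86 from the start and none of the other motifs. The Btc window holds none of the 5 motifs. The Egfr window has 1 GC box, at -9. The Errfi1 window shown, 1 of 2 annotated for the gene, has 3 GC boxes, of which a pair overlap, with a cAMP response element at -51 and a TATA box at -28. The other Errfi1 window, at chr4:150853546-150853795, holds none of the 5 motifs. Over 32851 annotated promoter windows of the same length, 12.4% hold the TATA box, 32.7% the GC box, 1.55% the cAMP response element, 6.75% the AP-1 site and 0.167% the SMAD palindrome. Their G and C content is 46.8% in Epgn, 59.6% in Btc, 60.8% in Egfr and 64.8% in Errfi1. These matches describe letters and do not show that a factor binds.

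Hbegf was lowest in EpH4. Its line means by 1418350_at were 10.57 in NMuMG, 10.14 in MCT, 9.90 in mProx and 8.06 in EpH4, and 1418349_at gave the same order. EpH4 was lower than mProx, MCT and NMuMG, with differences of -1.84, -2.08 and -2.51 (limma adjusted p = 0.000489, 0.000341 and 8.76e-05). The other 3 lines did not differ from each other beyond the threshold, the nearest being mProx and NMuMG (-0.67, adjusted p = 0.0546). By 1418349_at the EpH4 to mProx difference of -0.67 was not called either (limma adjusted p = 0.0584).

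Tgfa was lowest in mProx, where the line mean by 1421943_at was 7.88, next to 9.24 in EpH4, 9.29 in MCT and 9.52 in NMuMG. mProx was lower than MCT by 1.41 and than NMuMG by 1.64, and EpH4 was 1.35 higher than mProx (limma adjusted p = 0.014, 0.00368 and 0.00786). EpH4, MCT and NMuMG did not differ beyond the threshold among themselves. The other 2 Tgfa probe sets also had their lowest line mean in mProx, with ranges of 0.48 and 0.85, and neither was called by the F test (limma adjusted p = 0.302 and 0.0582). For 1421942_s_at the pair of mProx and NMuMG was called on its own (-0.85, limma adjusted p = 0.0245), but not on values without normalisation (-0.36, adjusted p = 0.431).

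Erbb3 had the widest range among the receptors. Its line means were 9.69 (EpH4), 8.64 (mProx), 8.23 (MCT) and 6.07 (NMuMG), a spread of 3.62 or 12.3-fold. All pairs of lines were called except mProx and MCT (0.41, limma adjusted p = 0.157), and EpH4 exceeded NMuMG with an adjusted p of 5.12e-06. The dimmer probe set 1452482_at, which was not tested, put the lines in the same order. Its values were 6.42 in stimulated and 6.22 in resting EpH4 cells, 5.57 and 5.43 in mProx, 4.12 and 4.88 in MCT, and 4.27 and 4.22 in NMuMG. The 2 mammary lines were thus at opposite ends for this receptor.

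Egfr ran from NMuMG through mProx and MCT down to EpH4 by 1435888_at, with line means of 10.22, 9.68, 9.03 and 8.40. That is a range of 1.82 or 3.54-fold, and all 6 pairs were called. On values without normalisation between arrays, the pairs EpH4 to MCT (-0.27) and mProx to NMuMG (-0.09) were no longer called (limma adjusted p = 0.565 and 0.856). Without the intensity trend EpH4 to MCT, mProx to MCT and mProx to NMuMG lost their calls (limma adjusted p = 0.0512, 0.0742 and 0.0787), and without the filter mProx to NMuMG did (0.0537). The other 5 tested Egfr probe sets had ranges of 0.55 to 1.01. NMuMG was the highest line in 5 of the 6, and 1454313_at put EpH4 highest with no call (limma F test, adjusted p = 0.514). Without normalisation, EpH4 to NMuMG lost its call for 1424932_at (-0.41) and 1460420_a_at (-0.04; limma adjusted p = 0.322 and 0.937). MCT to NMuMG lost its call for 1424932_at, 1451530_at and 1460420_a_at (limma adjusted p = 0.233, 0.186 and 0.289). The place of NMuMG in these sets thus depends on the scaling. The 6 sets disagreed on the lowest line, which was EpH4 in 3 of the 6 and MCT in the other 3 (1460420_a_at, 1451530_at and 1454313_at). The untested 1457563_at was under the filter level on all 8 arrays, between 3.50 and 4.68.

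Erbb2, the shared partner receptor, was at 8.78 in mProx, 8.63 in NMuMG, 8.42 in MCT and 8.29 in EpH4. The range of 0.49 was not called (limma F test, adjusted p = 0.172), and no pair of lines was. A p that misses the threshold does not show equal levels, and the interval of the widest difference, EpH4 minus mProx, ran from -0.94 to -0.04.

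Errfi1 was highest in NMuMG and lowest in MCT by both probe sets, with ranges of 1.14 and 1.55, or 2.21-fold and 2.94-fold. EpH4 and mProx lay between and did not differ beyond the threshold (-0.11, limma adjusted p = 0.555, by 1416129_at). MCT was lower than NMuMG by 1.14 (limma adjusted p = 0.000326). Without normalisation between arrays, the differences of EpH4 from NMuMG by the 2 probe sets were -0.11 and 0.04, and neither was called (limma adjusted p = 0.774 and 0.928). The same was true of mProx and NMuMG, so the place of NMuMG above those lines depends on the scaling.

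**Figure D3:**
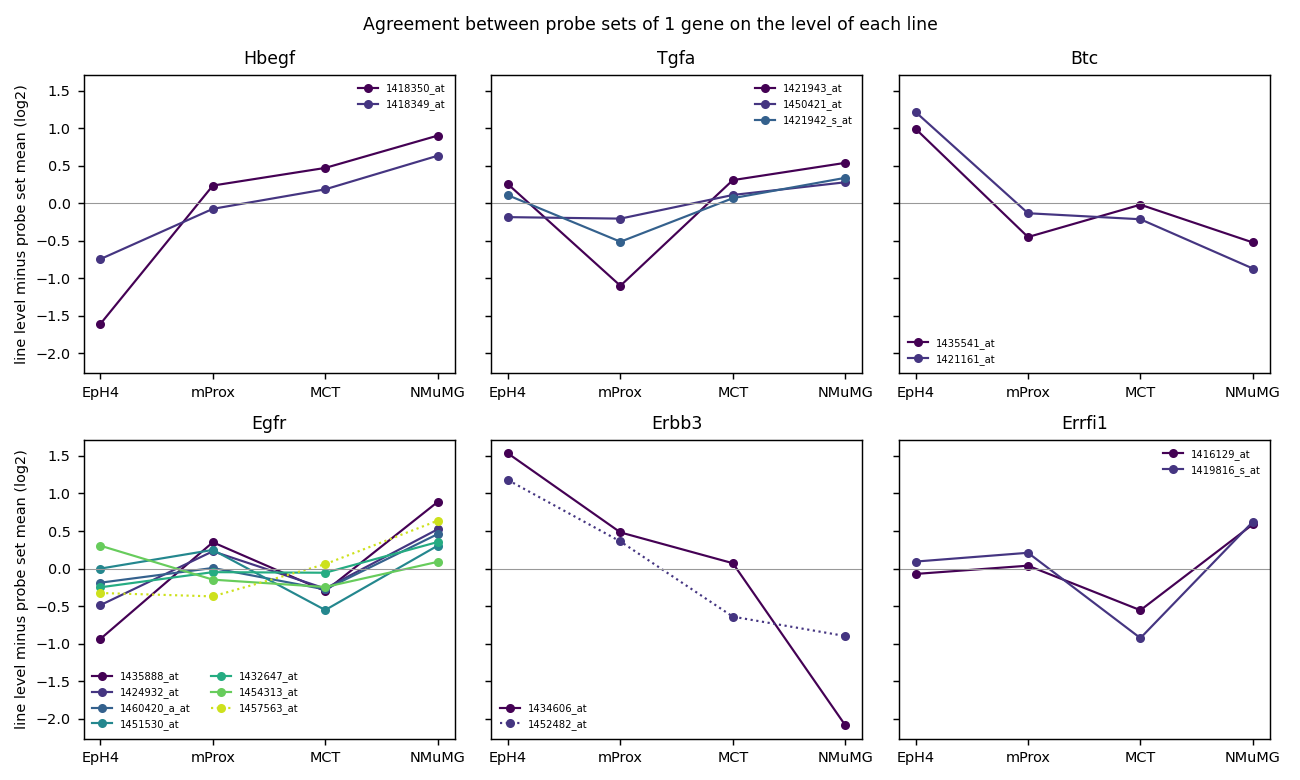
Line level minus the probe set's own mean (log2, y axis) in each line (x axis) for the genes with more than 1 probe set, with 1 line per probe set, dotted where not tested. The Hbegf, Erbb3 and Errfi1 sets put the lines in the same order, and Egfr 1454313_at departs from the other Egfr sets.

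Each gene's pattern was set against that of every other named gene over the 8 arrays, as a description only, since both arrays of a line share its level and 4 lines give few distinct patterns. Inhbb (r = 0.990), Lats2 and Ctsh were nearest to Ereg. Cttn (0.989), Hnrnpk and Limd2 were nearest to Hbegf, and Dhps (0.988), Acbd4 and Tnfrsf9 to Tgfa. Swt1 (0.996), Zbtb41 and Meaf6 were nearest to Btc, and Parn (0.990), Cstf1 and Osbpl2 to Epgn. Among the receptors, Egfr was nearest to Tspan6 (0.994), Nrp1 and Hnrnpr, Erbb2 to Atp6v1d (0.980), Gaa and Gabarap, and Erbb3 to Mrpl28 (0.998), Stxbp5 and Mocos. Errfi1 was nearest to Sypl (0.990), Zfp267 and Dync1li2.

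The rest of the pathway was read from lists of other family members, shedding enzymes, signal transducers, receptor turnover factors and genes that ERK signalling induces. No gene of these lists passed the test of a response in any comparison. Genes that ERK signalling is known to induce had the largest median change of these lists, 0.68 over 15 genes, where the median of all tested probe sets was 0.01. At an unadjusted p under 0.05, 11 of these 15 were higher and 0 lower, against 11% of all tested probe sets in either direction. In all 4 lines 9 were higher, where 19.1% of all tested probe sets had one direction throughout, up or down. The list was chosen with earlier results of these data known, so these counts are a description and not a test of the list.

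Etv5, a transcription factor downstream of ERK, was at 8.73 in stimulated and 7.42 in resting EpH4 cells, 9.17 and 6.25 in mProx, 8.62 and 7.35 in MCT, and 8.37 and 6.88 in NMuMG. Each stimulated array was above all 4 resting arrays, and the mean change was 1.75 ± 0.79 (SD, n = 4 lines; limma adjusted p = 0.113). The related Etv4 and the ERK phosphatase Dusp5 had mean changes of 1.63 ± 0.97 and 1.65 ± 0.96 (both limma adjusted p = 0.152). Egr1 and Spry1, of the same list, had means below 0, at -0.58 and -0.19. Errfi1 itself, which ERK signalling also induces, differed by 0.01 on average in these same arrays.

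The other ligands and Erbb4 gave 1 of 4 tested genes at an unadjusted p under 0.05. This was Nrg4, a ligand of Erbb4, which was higher in all 4 lines with a mean change of 0.68 ± 0.22 (SD, n = 4 lines; limma adjusted p = 0.343) and a level close to the filter. Erbb4 and Nrg3 were under the filter level and not tested. Of the 6 shedding genes, 2 were lower in all 4 lines, Adam9 by a mean of -0.23 ± 0.21 and Adam17, the main sheddase of several of these ligands, by -0.16 ± 0.14. The list's median was -0.02, and 0 were higher and 1 lower at an unadjusted p under 0.05.

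Of the signal transducers 15 were tested, with a median change of 0.04 and 2 higher and 2 lower at an unadjusted p under 0.05. The adaptor Gab2 had a mean change of 0.68 ± 0.63, Map2k1 (the kinase that activates ERK) one of 0.28 ± 0.11, and Pik3r1 (the regulatory subunit of PI3K) one of -0.62 ± 0.35. The 15 genes of receptor turnover and inhibition had a median of 0.05, with 2 higher and 1 lower at that threshold. Among them Cbl and Cblb, the ubiquitin ligases that send Egfr for degradation, had mean changes of 0.33 ± 0.29 and 0.29 ± 0.39, and the receptor phosphatase Ptprj had one of -0.41 ± 0.30.

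**Figure D4:**
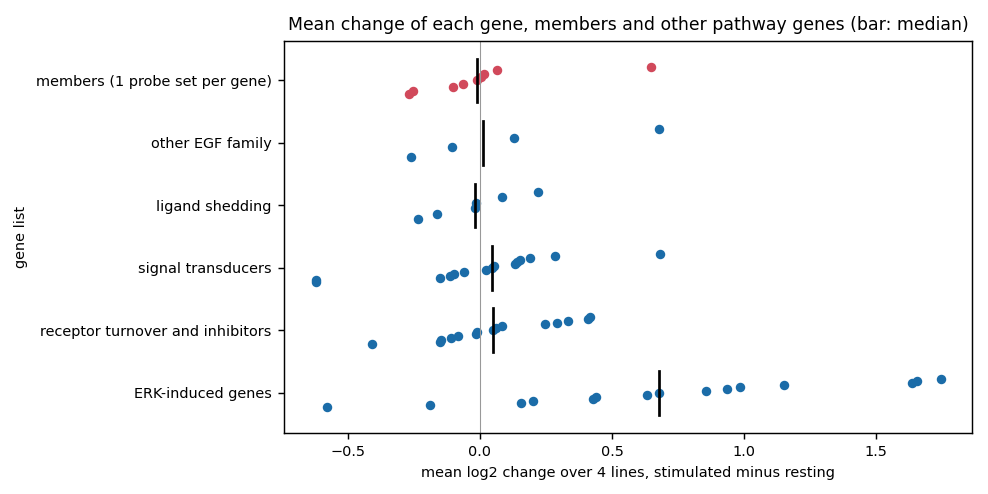
Mean log2 change over the 4 lines (stimulated minus resting, x axis) of each gene in the family and in the 5 pathway lists (rows), 1 point per gene, with a bar at the list's median. The ERK-induced genes have a median of 0.68, and the other pathway lists have medians between -0.02 and 0.05.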

How the data were processed

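Per the labels, biotin-labelled total RNA from 4 mouse cell lines was hybridised to Affymetrix arrays, 1 stimulated and 1 resting array per line (8 in all). The deposited values are linear intensities, 1 per probe set, which the authors made with MAS5 per the submitters' processing notes. The version of MAS5 and the target it scaled to are not stated there, and no detection calls entered the work. Depth has no counterpart on an array, and the number of arrays limits the precision.

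From the 45101 probe sets, 64 controls were dropped. Signals were raised by 10.6, their 25th percentile, log2 was taken, and the arrays, whose medians differed by 0.43, were quantile-normalised, which removes any overall shift. The 27022 probe sets with a mean of at least 5.27 (the 40th percentile) entered limma 3.58.1 (run in R 4.3.3) with an intensity trend and Benjamini-Hochberg adjustment at 0.05. Symbols came from the platform annotation (34945 probe sets with 1 symbol, 932 with several, 9160 with none), and the symbols of all 21 member probe sets were matched by Entrez identifier. The line was the block in tests of response. Arrays are paired by the name of the line, and both arrays of a line deviated together from their group means (r = 0.887 for EpH4, 0.857 for NMuMG, 0.804 for mProx and 0.762 for MCT). Line levels were tested with the condition as a covariate.

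The members and lists were chosen with earlier results of these data known. All member probe sets are named. From other lists, genes past the test are named, with up to 3 of the largest mean change among those with one direction in all 4 lines, and Egr1, Spry1 and the markers described were added after their values were seen. Alternatives were no normalisation, scaling to a trimmed mean, other offsets and filters, no intensity trend, 1 probe set per gene, no block and leaving out each line. The model code was tested on simulated data.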

Additional observations from a re-analysis of the deposited data

How the results depend on the processing

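The counts of members called for a response stayed at 0 under each alternative run, for the 4 lines, for the 3 lines without EpH4, for EpH4 against the others and for kidney against mammary lines. Without the replicate block, which the line names pair, the count over 4 lines was also 0. The count of members with a level difference between lines was 8 of 9 when 1 probe set per gene was tested, where 8351 of all 12570 were called. Leaving out each line in turn gave 9 to 13 of 19, against 11437 to 15368 of all 27022 tested probe sets. The lowest counts, 9 and 11437, came without EpH4. Without normalisation the count was 11 of 19, against 16501 of 27022. The members' share was then not above that of all probe sets. Of the 51 called pairs of lines, 51 were kept under trimmed-mean scaling and under offsets of 1 and 50, 46 without the filter, 42 without the intensity trend and 37 without normalisation.

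Mean changes near 0 turned sign in places, with no call before or after and the cause not tested. Without normalisation between arrays they were -0.0457 and -0.0576 for Errfi1 1416129_at and 1419816_s_at, -0.0757 for Tgfa 1421943_at, and -0.0427, -0.0845, -0.0716 and -0.00902 for Egfr 1424932_at, 1432647_at, 1451530_at and 1460420_a_at. With trimmed-mean scaling they were -0.0123 for Tgfa 1421943_at and -0.033 and -0.00985 for Egfr 1432647_at and 1451530_at. Ereg was at -0.18 with an offset of 1, and Tgfa 1421943_at at -0.0128 with one of 50. Leaving out each line in turn gave -0.0331 to 0.0633 and -0.026 to 0.0714 for the Errfi1 sets, -0.265 to 0.283 for Ereg, -0.344 to 0.0898 and -0.212 to 0.125 for Btc 1421161_at and 1435541_at, -0.262 to 0.216 for Tgfa 1421943_at and -0.13 to 0.00608 for Erbb3. For Egfr it gave -0.0972 to 0.213 (1424932_at), -0.0405 to 0.134 (1432647_at), -0.194 to 0.0016 (1435888_at) and -0.133 to 0.157 (1451530_at). Other mean changes kept their sign but moved by over 1.5 times, and some of them are given here. Without normalisation Erbb3 1434606_at was at -0.203, Egfr 1435888_at at -0.187 and Tgfa 1421942_s_at at 0.0797. With an offset of 50 Epgn was at -0.138. Epgn was at -0.406 without MCT, Tgfa 1450421_at and 1421942_s_at at 0.0856 and 0.0483 without mProx and 0.438 and 0.325 without NMuMG, Egfr 1454313_at at 0.236 without mProx, 0.666 without MCT and 0.201 without NMuMG, and Egfr 1460420_a_at at 0.132 without EpH4, 0.00641 without mProx and 0.136 without NMuMG. With 4 lines and dim signals for Ereg, Epgn and Btc 1421161_at, changes inside the printed intervals cannot be resolved.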
